A study of Mus musculus with 38 samples.

Results

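Cultured epidermal stem cells (EpdSCs) that expressed wild-type (WT) SOX9 were set directly against EpdSCs that expressed SOX9 without its transactivation domain (ΔTA-SOX9), through the H3K4me1 domains called for each culture. The members were all 116042 domains of the WT list and all 123338 domains of the ΔTA list, that is 239380 of the 1006702 intervals in the 14 lists of the series. A domain was matched where a domain of the other list overlapped it by at least 1 bp, and was otherwise called WT-only or ΔTA-only. The cells were keratinocytes of male mouse back skin that carried K14rtTA, a keratin 14-driven doxycycline (DOX) activator, and received lentiviral TRE-driven, MYC-tagged Sox9 variants under puromycin selection. WT and ΔTA cells were both given DOX. The same series holds a list of WT cells without DOX and a list of cells with DOX that expressed SOX9 without its DNA-binding HMG domain (ΔHMG-SOX9), and both served as reference. The barcodes also name ΔTA and ΔHMG cells without DOX, but no list of either was used here. For ΔTA domains the reference without DOX was thus another transduced line, and effects of DOX and of the line cannot be told apart. MINT-ChIP, a chromatin immunoprecipitation on pooled, barcoded chromatin, was run on 2 libraries, a low and a high micrococcal nuclease digest, and each condition had 1 barcode in each.

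SOX9 is a member of the SOX family, whose HMG domain binds a short AT-rich word in the minor groove and can reach it in closed chromatin. It specifies hair follicle stem cells (HFSCs) and is silent in the epidermis. The TA domain is the part through which SOX9 contacts co-factors, among them the methyltransferases MLL3 and MLL4, which place H3K4me1, the mark of primed and active enhancers. The question put to these cultures was what SOX9 does to chromatin once it can no longer hold such co-factors.

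The central sequences of the strongest domains found with one protein and not with the other are shown first, with the words searched for in both classes. The first 3 are WT-only and the next 2 are ΔTA-only, each the middle 200 bases of one of the 3 domains of highest fold in its class, read from the plus strand of GRCm38. Capitals mark the words searched for on either strand. The word ACAAAG, like the variant form spelt ACAATG, stands for the SOX family. The word TGANTCA, where N is any base, stands for AP1. The word AGATAA stands for the GATA family, and the word TGTGGTT for the RUNX family. A window without capitals lacks these letters, and no more than that can be read from it.
WT-only, in Zfpm2, chr15:40908716-40908915: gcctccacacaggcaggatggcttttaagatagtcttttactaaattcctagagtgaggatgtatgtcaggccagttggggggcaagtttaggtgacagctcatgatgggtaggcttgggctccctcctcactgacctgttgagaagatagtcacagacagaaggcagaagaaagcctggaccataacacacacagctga
WT-only, in an intron of Cntnap2, chr6:46886453-46886652: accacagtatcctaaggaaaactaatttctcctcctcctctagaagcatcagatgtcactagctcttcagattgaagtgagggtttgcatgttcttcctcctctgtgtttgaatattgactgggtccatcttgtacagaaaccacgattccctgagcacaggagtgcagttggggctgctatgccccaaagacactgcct
WT-only, in an intron of Dcaf6, chr1:165396675-165396874: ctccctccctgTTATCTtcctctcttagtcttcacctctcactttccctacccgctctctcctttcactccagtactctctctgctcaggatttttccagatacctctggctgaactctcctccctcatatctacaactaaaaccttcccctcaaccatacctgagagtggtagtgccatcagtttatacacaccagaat
ΔTA-only, nearest to Map3k1, chr13:111850293-111850492: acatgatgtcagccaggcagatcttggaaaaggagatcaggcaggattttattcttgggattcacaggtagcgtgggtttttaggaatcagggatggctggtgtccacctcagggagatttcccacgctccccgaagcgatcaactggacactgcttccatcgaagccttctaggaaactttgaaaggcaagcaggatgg
ΔTA-only, between genes, nearest to Zeb2, chr2:46332770-46332969: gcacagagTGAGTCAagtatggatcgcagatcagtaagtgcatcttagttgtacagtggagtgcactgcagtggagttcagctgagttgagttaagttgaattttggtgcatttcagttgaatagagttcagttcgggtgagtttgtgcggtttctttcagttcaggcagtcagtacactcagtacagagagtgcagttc

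Only the Dcaf6 and Zeb2 windows held a word, a GATA word and an AP1 word. No WT-only window of these held a SOX word. The remaining ΔTA-only window, nearest to Rnaset2a and not shown, held no word. The Zfpm2 window lay in an exon of the unclassified transcript Gm49525, and 177 bases of the window nearest to Map3k1 lay in an exon of the long non-coding RNA Gm15325. Repeats made up 22% of the Zfpm2, 22.5% of the Cntnap2 and 10.5% of the Dcaf6 window, and 0% of the Map3k1 and Zeb2 windows. To show how the words sit in unique sequence, the next windows give the middle 100 bases of strong domains that held a SOX word and were found with WT SOX9 in none of the other 3 lists, and of strong ΔTA-only domains that held an AP1 word. They were chosen after their values were seen, from windows outside exons and free of repeats. The domain of the last window lay 753350 bp from the Zeb2 start site.
WT-only, in an intron of Katnal1, chr5:148909146-148909245: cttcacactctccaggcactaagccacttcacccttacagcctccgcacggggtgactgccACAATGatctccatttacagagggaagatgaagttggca
WT-only, in introns of the non-coding Gm20754 and Gm38353, nearest to Slitrk3, chr3:73331838-73331937: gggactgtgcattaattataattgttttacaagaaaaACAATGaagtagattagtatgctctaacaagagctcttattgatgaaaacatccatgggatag
WT-only, between genes, nearest to Gm13889, chr2:93944594-93944693: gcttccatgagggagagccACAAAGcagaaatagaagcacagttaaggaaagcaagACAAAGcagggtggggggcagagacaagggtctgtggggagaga
ΔTA-only, in an intron of Gm2115, chr7:84566383-84566482: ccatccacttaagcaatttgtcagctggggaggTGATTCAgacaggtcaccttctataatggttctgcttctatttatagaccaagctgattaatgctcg
ΔTA-only, between genes, nearest to Zeb2, chr2:45871088-45871187: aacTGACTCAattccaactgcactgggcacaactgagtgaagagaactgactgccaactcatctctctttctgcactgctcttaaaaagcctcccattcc

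Of the WT list, 35358 domains (30.5%, exact 95% interval 30.2 to 30.7%) had no ΔTA counterpart, and of the ΔTA list 41838 domains (33.9%, 33.7 to 34.2%) had no WT counterpart. The unmatched domains covered 28.8 Mb of the 133.1 Mb under WT domains and 30.2 Mb of the 133.2 Mb under ΔTA domains. The shared bases made up a Jaccard index of 0.406, the lowest of the 6 pairs of culture lists, which otherwise ran from 0.450 for WT with ΔHMG-SOX9 to 0.587 for ΔHMG-SOX9 with no DOX. The ΔTA list was closer to the list without DOX (0.526) and to the ΔHMG list (0.556) than to the WT list. When both lists were shortened to the same number of domains of highest score, the order of the 2 shares turned, to 32.5% WT-only and 32.0% ΔTA-only.

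Each condition was represented by 1 pooled list, so there was no spread between replicates and no test, and a difference between proteins cannot be told apart from one between 2 cultures or their libraries. Intervals on shares cover counting error only. In bulk chromatin, fewer cells with a domain and less mark per cell cannot be told apart. The fold and p of narrow domains gave a background pileup of 1.93 reads in the WT list, 1.66 in the ΔTA list, 1.52 in the ΔHMG list and 1.60 without DOX, so that the WT list was the deepest and the ΔTA list nevertheless the longest. Domains within 1000 bp of a start site were found for 4 of 5 keratinocyte markers in each list (Trp63 lacked one with WT and Itga6 with ΔTA-SOX9), but also for all 3 fibroblast and 3 of 4 melanocyte markers in both, so that the mark at start sites does not separate cell types. Of 3 immune markers, 0 had one in the WT list and 1 in the ΔTA list.

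Unmatched domains were narrower and slightly weaker than matched ones. Their median width was 635 bp with WT and 567 bp with ΔTA-SOX9, against 1088 and 1083 bp for matched domains. Their median fold enrichment was 3.37 and 3.38, against 3.57 and 3.64. The nearest domain of the other list lay a median of 4742 bp from a WT-only domain and 5754 bp from a ΔTA-only domain, and only 5.83% and 5.04% had one within 1000 bp. The share without a counterpart fell steadily with width, from 54.2% to 8.61% between the narrowest and widest decile of the WT list and from 62.5% to 6.70% in the ΔTA list. By fold it was highest in the third decile of the WT list (36.7%) and the second of the ΔTA list (43.3%), and was 23.3% and 23.7% in the strongest decile.

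**Figure D1:**
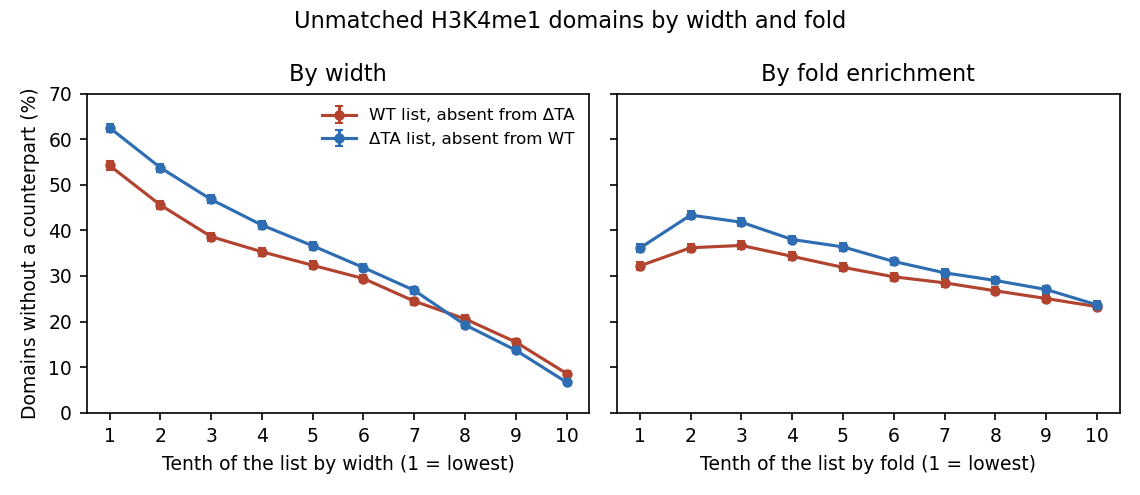
Share of domains without a counterpart in the other list (y axis, %) by decile of the list (x axis), ranked by width on the left and by fold enrichment on the right, for the WT list (red) and the ΔTA list (blue). Bars are exact 95% intervals. Both curves drop with width, from 54.2% to 8.61% with WT and from 62.5% to 6.70% with ΔTA-SOX9, and are at 23.3% and 23.7% in the strongest decile of fold, their lowest values there.

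Distal sites, over 2500 bp from a start site, made up 85.1% of WT-only and 86.7% of ΔTA-only domains, against 72.2% and 72.0% of matched domains. Introns held 47.3% of WT-only and 44.7% of ΔTA-only domains, and 35.0% and 38.6% lay between genes. On chromosome X, 43.1% of WT domains and 40.3% of ΔTA domains had no counterpart. Unmatched domains lay near others of their own class, with 42.3% of WT-only and 42.0% of ΔTA-only domains within 10 kb of another, while 33.3% and 28.4% had a domain of the opposite class at that distance.

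The 2 classes parted in the other culture lists. Of the WT-only domains, 24.4% were found without DOX and 22.7% with ΔHMG-SOX9, and 67.7% (67.2 to 68.2%) were in neither list. Of the ΔTA-only domains, 40.9% were found without DOX and 51.0% with ΔHMG-SOX9, and 39.5% (39.1 to 40.0%) were in neither. Both lists held 14.9% of the WT-only and 31.4% of the ΔTA-only domains. Matched domains were in each list at 91.2 to 92.3%. Most WT-only domains were thus called in the WT list alone of these 4, whereas most ΔTA-only domains were also called where SOX9 was not induced or lacked its DNA-binding domain.

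Stronger ΔTA-only domains were shared more often. With both classes divided at the same folds, ΔTA-only domains were found with ΔHMG-SOX9 at 37.1% in the lowest quartile class and at 69.3% in the highest. For WT-only domains the same share was 25.6% in the lowest quartile class and 21.2% in the highest. Without DOX the ΔTA-only share went from 32.3% to 54.3%, and the WT-only share from 28.6% to 21.5%.

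**Figure D2:**
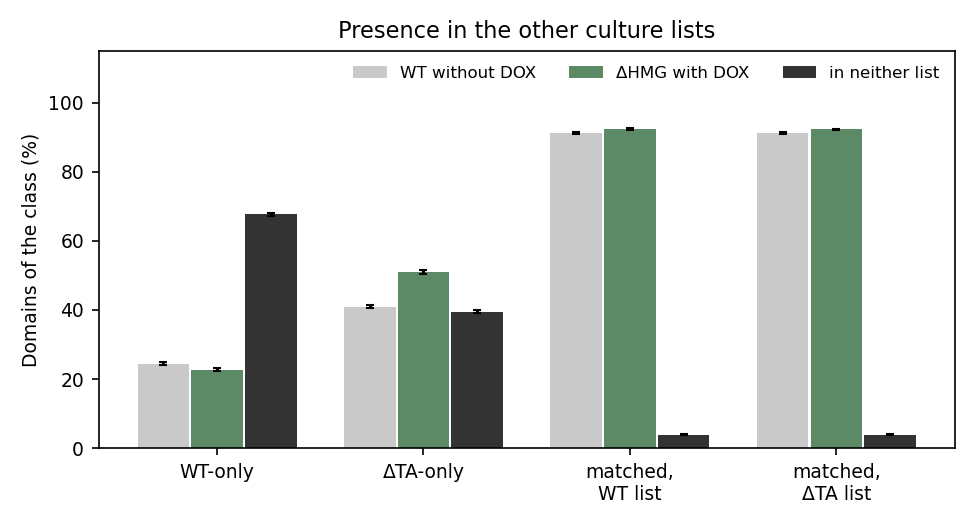
Share of each class of domains (y axis, %) that overlapped the list without DOX (light grey), the ΔHMG list (green) or neither (black), with exact 95% intervals. WT-only domains are in neither list at 67.7% and ΔTA-only domains at 39.5%, while matched domains are in each list at over 91%.

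The words at the domain centres divided the classes in the same way. A SOX word was present in the middle 300 bases of 47.7% (47.2 to 48.2%) of WT-only domains and 34.4% (33.9 to 34.8%) of ΔTA-only domains, against 35.8% of matched WT domains and 35.3% of matched ΔTA domains. It was present in 50.6% of the WT-only domains found in no other culture list and in 40.0% of those also found both without DOX and with ΔHMG-SOX9. For ΔTA-only domains the same values were 35.0% and 33.4%. Both forms of the word followed this order, with ACAAAG in 32.6% of WT-only and 23.4% of ΔTA-only windows and ACAATG in 23.0% and 14.4%. The complete lists held a SOX word at 39.4% with WT, 35.0% with ΔTA-SOX9, 34.9% with ΔHMG-SOX9 and 34.7% without DOX. Of 300-base RefSeq promoters in GRCm38, 28.6% held one, but their GC content was 53.8%, against 46.9% in windows of the complete WT list.

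The AP1 word, bound by FOS and JUN proteins that are abundant in keratinocytes, ran the other way. It was present in 11.1% (10.8 to 11.4%) of WT-only and 23.3% (22.9 to 23.7%) of ΔTA-only windows, with matched domains in between at 17.5% and 17.97%. Among domains above the median fold of their list it was in 11.9% of WT-only and 26.8% of ΔTA-only windows. RefSeq promoters, which are richer in GC, held it at 7.81%. The GATA word was in 17.9% of WT-only and 15.8% of ΔTA-only windows, and the RUNX word in 7.78% and 7.29%, so that these 2 families differed little between the classes.

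Base composition moved with the classes, since GC content was 44.9% in WT-only, 46.4% in ΔTA-only and 47.8% in matched WT windows. The gaps were present at every GC content examined. In windows with less than 40% GC a SOX word was in 55.8% of WT-only and 43.9% of ΔTA-only domains, and in windows with 50% GC or more in 35.0% and 25.7%. An AP1 word was in 13.2% and 22.8% of the first and in 7.85% and 19.95% of the second. Repeats made up 20.3% of WT-only and 21.5% of ΔTA-only windows. A word is a string of letters and not a bound site, and whether SOX9 or AP1 occupied these domains was not tested.

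**Figure D3:**
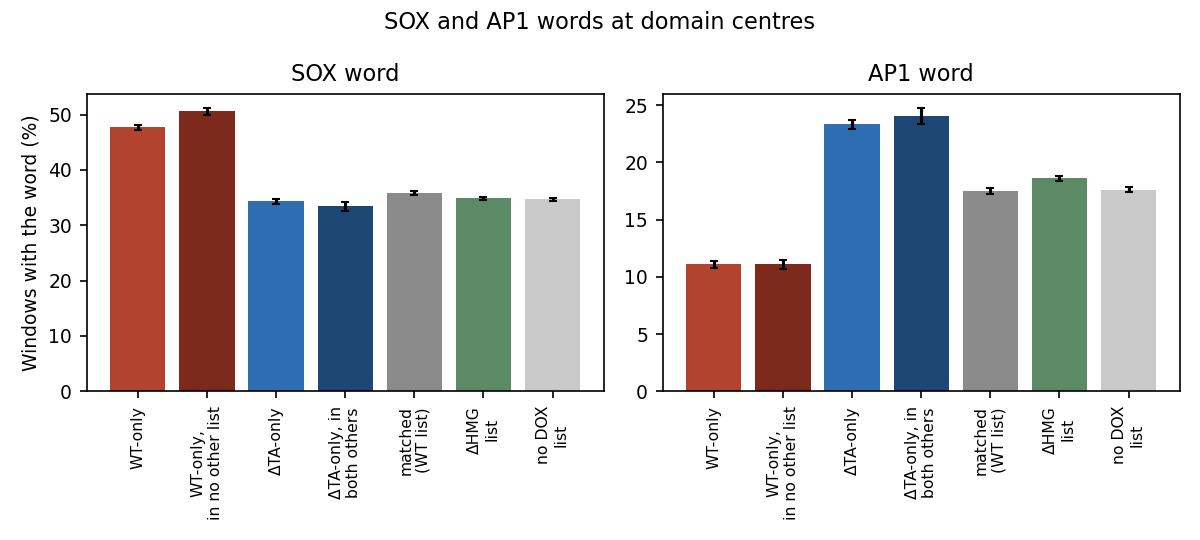
Share of 300-base windows at domain centres (y axis, %) that held a SOX word (left) or an AP1 word (right), with exact 95% intervals, for WT-only and ΔTA-only domains, a subset of each, matched domains and the complete ΔHMG and no DOX lists. The SOX word is highest in WT-only domains found in no other list, at 50.6%, and the AP1 word in ΔTA-only domains found in both other lists, at 24.05%, and in all ΔTA-only domains, at 23.3%.

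Skin of animals in which DOX switched on SOX9 in the epidermis offered a readout of the same positions. It was profiled at D0 (no DOX) and after 1, 2, 6 and 12 weeks (W1, W2, W6 and W12). The skin libraries were separate from those of the cultures, but a W2 replicate shared its libraries with the W12 samples. The W12 samples differed in kind, since they came from neonatal skin of these animals grafted onto immunodeficient Nude mice before DOX. WT-only domains overlapped skin H3K4me1 domains at 35.1% before DOX (D0), and at 34.5%, 39.6%, 37.4% and 33.2% at the 4 later times. ΔTA-only domains overlapped them at 32.7% before DOX and then at 23.4%, 25.3%, 28.1% and 29.2%. The classes were thus close at D0, and farther apart at W1, W2 and W6 than at D0 or W12. A skin domain at W2 without one at D0 was found over 12.8% (12.4 to 13.1%) of WT-only, 5.35% (5.14 to 5.57%) of ΔTA-only and 5.61% of matched WT domains. The opposite pattern, a skin domain at D0 and none at W2, was found over 8.31% of WT-only, 12.7% of ΔTA-only and 10.6% of matched WT domains.

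H3K27ac, the mark of active enhancers, was rare over both classes, and no skin peak at any time lay over 86.8% of WT-only and 92.4% of ΔTA-only domains. Peaks of W2 lay over 6.70% of WT-only and 2.57% of ΔTA-only domains, and peaks of W2 without one at D0 over 3.92% (3.72 to 4.12%) and 1.26% (1.16 to 1.38%). Matched WT domains carried more of both, at 20.7% and 7.27%, so that unlike for H3K4me1 the WT-only share of peaks found at W2 and not at D0 lay below the matched share. Within the quartile class of highest fold the latter shares were 3.05% and 0.830%, and within the lowest quartile class 5.41% and 1.72%. Skin lists were pooled as well and differed in length, from 69439 H3K4me1 domains at W1 to 87287 at D0, so that a level at one time is best read against the other class at that time.

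**Figure D4:**
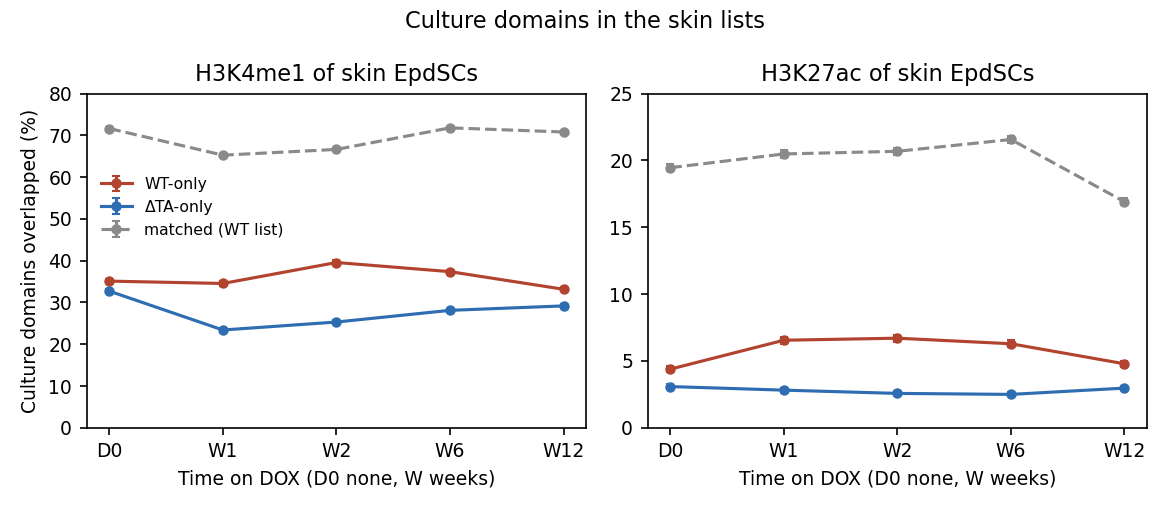
Share of WT-only (red), ΔTA-only (blue) and matched (grey, dashed) culture domains (y axis, %) that overlapped H3K4me1 domains (left) or H3K27ac peaks (right) of skin EpdSCs at D0 and after 1, 2, 6 and 12 weeks of DOX (x axis, not to scale in time). Bars are exact 95% intervals. WT-only domains lie above ΔTA-only domains at every time, with 39.6% against 25.3% for H3K4me1 at W2.

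The strongest unmatched domains were short. The 10 WT-only domains of highest fold ranged from 10.2 to 11.6 in fold and from 263 to 511 bp in width, and 9 of them were absent from both other culture lists. The 10 strongest ΔTA-only domains ranged from 10.1 to 12.2 in fold and from 262 to 580 bp, and 0 were absent from both, with 6 found without DOX and 8 with ΔHMG-SOX9. After those nearest to Zfpm2 (fold 11.6), Cntnap2 (11.4) and Dcaf6 (11.3), the WT-only set lay nearest to Serpina5 (10.99), Ift74 (10.7), Sntb1 (10.6), Tent5a (10.3), Cdh2 (10.3), 4933412E24Rik (10.2) and Tcp10c (10.2), the last being the one also found in both other lists. Only the domain 196052 bp from Sntb1 had skin H3K4me1, at W2. Cdh2 encodes N-cadherin, an adhesion molecule of mesenchymal and neural cells, but the domain lay 373748 bp from its start site.

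After Map3k1 (fold 12.2), a kinase upstream of JNK, Rnaset2a (11.3) and Zeb2 (11.3), the ΔTA-only set lay nearest to Lce1m (11.3), a gene of the cornified envelope cluster, Stk35 (10.9), Ust (10.9), Hdgfl1 (10.8), Amd2 (10.7), Clcn1 (10.4) and Ifi209 (10.1). Of these 10 domains 3 had skin H3K4me1, those nearest to Map3k1 (W2), Lce1m (W12) and Ust (D0, W1 and W6), against 1 of the 10 WT-only domains. Rnaset2a, Amd2 and Tcp10c have near-identical copies in the genome, so the placing of reads there is uncertain.

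The widest unmatched domains were weaker. Among WT-only domains the widest lay in an intron of Sox6, which encodes another SOX factor, at chr7:115623597-115630616 (7020 bp, fold 2.56), but its nearest ΔTA domain was only 184 bp away. It was followed by domains nearest to Rapgef5 (4806 bp), Pparg (4759 bp), a regulator of lipid metabolism, Slc44a1 (4701 bp) and Cpm (4633 bp), and those near Rapgef5 and Slc44a1 were absent from both other culture lists. The widest ΔTA-only domains, nearest to Psg22 (4305 bp), Cyp11a1 (4242 bp), Nol7 (4034 bp), Iqsec3 (4002 bp) and Plcb2 (3967 bp), were all found with ΔHMG-SOX9 and, apart from that near Nol7, without DOX.

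Some genes had many more unmatched domains of one class than of the other. Domains were assigned to the nearest protein-coding start site within 100 kb, which left 18282 genes with a domain of either list. At least 1 WT-only domain was nearest to 57.6% of them and at least 1 ΔTA-only domain to 65.5%, with more WT-only domains at 28.9% and more ΔTA-only domains at 40.8%. An excess of 10 or more was found at 83 genes for WT-only domains and at 54 genes for ΔTA-only domains. For these genes and those below, the excess was the criterion by which they were chosen. The counts were not scaled to gene length or to all domains of a gene. Several of the genes named below are long, and Pde4d had 76 WT and 56 ΔTA domains in all. The part of locus size in these counts was not tested.

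Elmo1, whose product activates RAC in cell migration and engulfment, had 25 WT-only and 0 ΔTA-only domains. H3K4me1 domains covered 8.62% of its locus, taken as the gene with 10 kb added at each end, with WT SOX9, against 0.752% with ΔTA-SOX9, 0.774% with ΔHMG-SOX9 and 0.585% without DOX. Of its 25 WT-only domains, 24 were absent from both other culture lists, 18 were intronic and 8 held a SOX word. The strongest, at chr13:20200482-20200820 in an intron, had a fold of 4.74. In skin, which the choice did not use, coverage of the Elmo1 locus was 10.5% before DOX, then 12.5%, 24.2%, 15.8% and 16.1% after 1, 2, 6 and 12 weeks.

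Mitf, the transcription factor of the melanocyte lineage, had 29 WT-only and 6 ΔTA-only domains. Its locus was covered at 21.3% with WT, 9.30% with ΔTA-SOX9, 8.97% with ΔHMG-SOX9 and 7.52% without DOX. Its strongest WT-only domain overlapped an exon at chr6:98013599-98013882 (fold 5.63). Skin coverage of Mitf was 13.5% at D0 and 30.5% at W2. The melanocyte markers Dct, Mlana and Pmel had a domain near a start site in both lists and Tyr in neither, and whether melanocytes had a part in this was not tested.

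Chl1, an adhesion molecule of the L1 family, had 25 WT-only and 2 ΔTA-only domains, of which 15 of the WT-only held a SOX word, and coverage of 11.3% with WT against 3.42% with ΔTA-SOX9. Gprin3 had 17 and 0 domains and the widest gap in coverage of the 10 genes, 21.3% against 1.79%. Zbtb20, a zinc finger repressor, had 24 and 6 domains (7.30% against 2.43%), and Pdgfc, a ligand of PDGF receptors, 18 and 1 (18.6% against 6.46%). The others were Pde4d, a cAMP phosphodiesterase, with 37 and 17 domains, Adgrl3, an adhesion receptor, with 19 and 2, Add3, a protein of the membrane skeleton, with 19 and 2, and Stard13 with 16 and 1.

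Of the 229 WT-only domains of these 10 genes, 85.2% were absent from both other culture lists, 45.4% held a SOX word and 13.97% an AP1 word. Over all WT-only domains these shares were 67.7%, 47.7% and 11.1%, so the chosen genes were not richer in SOX words. Skin coverage was higher at W2 than at D0 for Elmo1, Mitf, Zbtb20, Gprin3, Adgrl3 and Stard13, and lower for Chl1, Pde4d, Pdgfc and Add3. Of the 10 genes with the largest excess of ΔTA-only domains, it was higher at W2 for 5, namely Erc2, Ltbp1, Iqsec1, Rai14 and Tspan18. Of the 83 genes with an excess of 10 or more WT-only domains, 60.2% had more skin coverage at W2 than at D0, with a median difference of 1.84 points. The values were 44.4% and -0.866 points for the 54 genes with the opposite excess, and 33.0% and -1.42 points for all genes with a domain.

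Among the 10 genes with the largest excess of ΔTA-only domains, Erc2, a presynaptic scaffold, had 1 WT-only and 21 ΔTA-only domains and was covered at 3.41% with WT, 6.53% with ΔTA-SOX9, 4.62% with ΔHMG-SOX9 and 3.45% without DOX. Kcnj6 (3 and 19 domains) and Kcnd3 (0 and 13) encode potassium channels and Shank2 (5 and 21) a postsynaptic scaffold. Coverage of Kcnj6 was 0.518% with WT and 6.70% with ΔTA-SOX9, and of Kcnd3 2.73% and 9.52%. For both, the list without DOX was near that of WT, at 1.496% and 2.56%.

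Slc38a4, an amino acid transporter, had 2 and 19 domains and followed another course, with 2.96% coverage with WT, 14.6% with ΔTA-SOX9, 14.01% with ΔHMG-SOX9 and 10.3% without DOX. Ltbp1, which holds latent TGFβ in the matrix, had 5 and 22 domains and 8.57% coverage with WT, 14.9% with ΔTA-SOX9 and 13.3% without DOX. Prkag2, a subunit of AMP-activated kinase, had 1 and 16, Iqsec1, an exchange factor for ARF, 5 and 19, Rai14 0 and 14, and Tspan18, a tetraspanin, 1 and 15. Of the 179 ΔTA-only domains of these 10 genes, 41.3% were absent from both other lists, 37.4% held a SOX word and 21.8% an AP1 word. Over all ΔTA-only domains these shares were 39.5%, 34.4% and 23.3%.

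**Figure D5:**
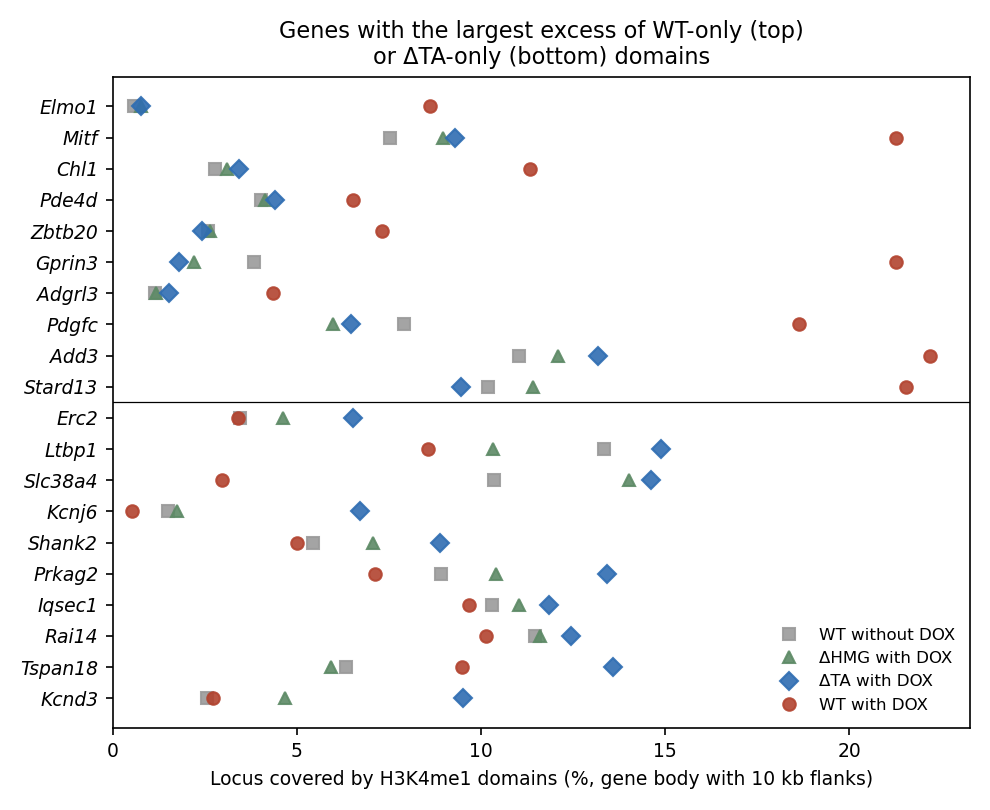
Percentage of the locus (the gene with 10 kb added at each end) covered by H3K4me1 domains (x axis) in the 4 culture lists, for the 10 genes with the largest excess of WT-only domains (above the line) and of ΔTA-only domains (below it), which were chosen for that excess. Each point is 1 pooled list. Elmo1, for example, stands at 8.62% with WT and at most 0.774% in the other 3 lists, and Slc38a4 at 2.96% with WT and 14.6% with ΔTA-SOX9.

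Where both proteins gave a domain, its fold over the background of its own list was alike. Each fold was scaled within a list and the pairs were called in both, so equal amounts of mark cannot be read from this. In 75064 one-to-one pairs the log2 ratio of fold, WT over ΔTA, had a median of -0.03 and quartiles of -0.24 and 0.18. WT was wider in 48.5% of pairs and ΔTA in 51.2%. A ratio of at least 2 times the median was found in 269 pairs (0.358%) in favour of WT and in 345 pairs (0.46%) in favour of ΔTA-SOX9. The decile of pairs most in favour of WT was found without DOX at 85.5% and held a SOX word in 38.5% and an AP1 word in 17.5% of windows. The decile most in favour of ΔTA-SOX9 was found without DOX at 91.8%, with a SOX word in 35.6% and an AP1 word in 21.8%.

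The pairs farthest in favour of WT lay nearest to Bach2, a repressor of the AP1-like BACH family (fold 11.04 with WT and 3.08 with ΔTA-SOX9, log2 ratio 1.84), Il1rl2, the receptor of epithelial IL-36 cytokines (8.48 and 2.67, 1.67), Ascc3 (1.63), Selenow (1.57) and Slc6a15 (1.56). Those farthest in favour of ΔTA-SOX9 lay nearest to Fgd6 (1.95 and 6.82, -1.80), Ube2g2 (-1.60), Myo3a (-1.58), Ces2a (-1.57) and Mkln1 (-1.57). In 4 of the 5 former and 4 of the 5 latter the domain was also called without DOX. Widths differed within several of these pairs, as for Bach2 with 391 bp in WT and 1904 bp in ΔTA-SOX9, so that the folds were averaged over unequal stretches.

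Sox9 itself differed at its first exon. A WT domain at chr11:112781993-112785487 (3495 bp, fold 3.24) covered 100% of exon 1, which no domain of the other 3 lists touched. Exon 2 was covered at 100% with WT, 92.5% with ΔTA-SOX9 and 100% in the other lists. The coding part of exon 3, which holds the TA domain, was covered at 97.6% with WT and at 100% with ΔTA-SOX9, with ΔHMG-SOX9 and without DOX, so the lists do not show the deletion. Reads of the introduced Sox9 and of the endogenous gene were not separated. The locus was covered at 14.6% with WT and 13.3% with ΔTA-SOX9, and it was nearest to 5 WT-only and 12 ΔTA-only domains. With 50 kb on both sides the order turned, to 8.11% with WT and 14.4% with ΔTA-SOX9.

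Coverage of whole loci moved little for most genes. Of 18715 protein-coding genes covered in either list, 540 (2.89%) were covered at least 10 percentage points more with WT and 335 (1.79%) at least 10 points more with ΔTA-SOX9, around a median difference of 0.07 points. Of the 244 genes in 13 lists of skin pathways and markers, 9 (3.69%) and 3 (1.23%) passed these limits, close to the shares of all genes. With 50 kb on both sides of the gene none of them did.

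The transcription factors of HFSCs, the fate that SOX9 directs, held 2 of 20 members that passed with WT and 0 with ΔTA-SOX9, with a median difference of 2.64 points and 17 members above 0, or 12 with 50 kb on both sides. Unmatched domains nearest to them numbered 102 WT-only and 105 ΔTA-only. Sox13, a SOXD factor, was covered at 24.3% with WT, 6.67% with ΔTA-SOX9, 7.28% with ΔHMG-SOX9 and 4.93% without DOX, and had 10 WT-only and 0 ΔTA-only domains. Tbx1, a regulator of HFSC self-renewal, stood at 27.3% and 16.8%, but at 24.8% with ΔHMG-SOX9. Tcf7l2, a Wnt effector of HFSCs, missed the limit at 17.8% against 8.39%, with 7.54% and 6.86% in the ΔHMG and no DOX lists. Sox4 had the lowest difference, 18.3% with WT against 23.3% with ΔTA-SOX9. The 25 HFSC and outer root sheath markers held 0 members past either limit, between Krt24 (2.95% with WT, 11.4% with ΔTA-SOX9) and Tnc (12.4% and 9.16%). They leaned the other way from the factors, with a median difference of -1.26 points, 9 members above 0 and 16 below.

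Of the 20 epidermal transcription factors 0 passed in either direction, and the median difference was -1.12 points. Unmatched domains nearest to them numbered 43 WT-only and 64 ΔTA-only. More ΔTA-only domains were also found over both complete lists (35358 and 41838) and at the HFSC markers (65 and 94), the Wnt list (62 and 91) and the AP1 family (14 and 32). Hopx, a homeodomain protein of differentiation, was covered at 11.2% with WT and 19.8% with ΔTA-SOX9, with 15.7% and 15.6% in the ΔHMG and no DOX lists. Klf4, a barrier factor, was at 10.4% and 14.7%, and Zfp750, which drives terminal differentiation, at 30.2% and 25.1%. Trp63, the master factor of stratified epithelia, was at 11.96% and 13.8%, and Gata3, which the epidermis needs for its barrier, at 22.9% and 20.5%. With 50 kb on both sides the order turned for Gata3 (12.9% and 16.1%) and Zfp750 (21.9% and 23.6%). Hopx, Klf4 and Trp63 kept theirs.

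Among 24 epidermal keratins and differentiation genes, 3 passed with WT and 0 with ΔTA-SOX9. Krt6a and Krt6b, keratins of the companion layer, outer root sheath and wounded epidermis, were covered at 42.5% against 24.7% and at 25.7% against 10.6%. Without DOX they stood at 26.8% and 6.396%. Sprr1b, a cornified envelope protein of stressed epidermis, was at 23.9% against 10.4%. Krt16 went the other way without passing, at 27.9% with WT and 37.1% with ΔTA-SOX9, and Krt5, the basal keratin, was at 38.0% and 36.0%. Krt6a, Krt6b and Krt16 have close paralogues next to them, and their flanks overlap other keratin genes.

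The Wnt list held the 2 non-marker genes that passed with ΔTA-SOX9. Rspo1, a secreted enhancer of Wnt signals, was covered at 2.38% with WT, 22.0% with ΔTA-SOX9, 15.9% with ΔHMG-SOX9 and 11.3% without DOX. Wnt7a, an epidermal ligand, was at 22.3%, 32.7%, 24.2% and 24.4%. Ctnnb1, which encodes β-catenin, did not pass at 22.0% and 26.1%, with 2 WT-only and 11 ΔTA-only domains. Of the Notch and EGF receptor list 2 of 21 passed with WT, the Notch target Hey1 at 17.6% against 5.12%, but with 14.5% already without DOX, and the receptor Erbb3 at 23.3% against 13.0%. In the RUNX, GATA and SOX families Sox13 and Sox8 (25.6% against 14.1%) passed. Runx1, an HFSC activator, was at 18.7% and 17.5%, but at 16.4% and 17.2% with 50 kb on both sides.

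The remaining pathway lists held 0 members past a limit, and members at their extremes are given. Of the SOX9-associated co-factors 15 of 17 lay above 0 (12 with 50 kb on both sides), up to Smarcd2, a SWI/SNF subunit, at 28.0% against 20.5%, while Kmt2a, which encodes MLL1, was at 8.01% against 15.9%. Lists leaned both ways around the median of 0.07 points over all covered genes. Members above 0 numbered 17 of 21 in the Notch and EGF receptor list and 9 of 24 in the Wnt list. In the TGFβ and BMP list the values ran from Tgfbr2 (8.06% with WT, 15.3% with ΔTA-SOX9) to Bmp2 (21.9% and 12.1%). In the Hedgehog list the highest difference was that of Gli1 (19.9% and 14.4%), and in the AP1 family they ran from Junb (32.9% and 38.3%) to Fos (20.035% and 15.4%). In the mesenchymal list they ran from Snai1 (20.6% and 30.04%) to S100a4 (37.6% and 28.6%). Vim was at 7.53% and 8.56%, but at 11.3% and 9.14% with 50 kb on both sides. It had 3 WT-only and 0 ΔTA-only domains. Of 20 markers of other cell types, 1 passed with WT and 1 with ΔTA-SOX9, the latter being Cdh5, the endothelial cadherin, covered at 0.493% and 14.4%. The part of other cell types in these results was not tested.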

How the data were processed

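H3K4me1 was measured by MINT-ChIP in 2 culture libraries, and skin lists of separate libraries were used beside them. Per the study's methods, the authors aligned reads to GRCm38/mm10, removed duplicates and merged replicates before calling, so each condition has 1 pooled list. The submitters' processing notes name Bowtie2 2.2.9, SAMtools 1.9, MACS2 2.1.1, SICER 0.0.36 and deepTools 2.5.4. The methods name epic2 for H3K4me1, yet the culture lists have the layout of MACS2 broad peaks, and settings and DOX duration are not given in the sources used here.

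Culture lists were deposited with a score (integers), the fold of signal over background as a linear ratio, and significance as −log10 of p and, separately, of q. The largest q in the WT and ΔTA lists was 0.0981. Skin H3K4me1 lists were deposited with p-values, and only their positions were used, as were those of the skin H3K27ac peaks. Lists of barcodes (other values, deposited as text) were read for the conditions only.

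Overlap meant 1 bp on 21 chromosomes. Start sites came from the GENCODE M21 basic set (77221 sites, 21938 protein-coding genes). Depth was read from the most common fold and p of domains up to 450 bp. Words were searched on both strands of the RefSeq GRCm38 genome and its promoter table. Exact intervals were Clopper-Pearson (SciPy 1.17.1), and functions were tested on simulated lists. No test compared conditions.

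Members and gene lists were chosen with earlier results of these data known. Named items were the 10 unmatched domains of highest fold and the 5 widest per class, the 10 genes with the largest excess each way, the 5 extreme pairs each way, the listed genes that differed most, and Sox9, Gata3, Trp63, Vim, Runx1, Krt5 and Ctnnb1. Alternatives were other overlap rules, score and fold limits, equal lists, joined domains, no sex chromosomes, other distal limits, flanks and windows, and, chosen after seeing the data, distal domains and GC bins for the words. Some items that these rules name are not reported here.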

Additional observations from a re-analysis of the deposited data

How the results depend on the processing

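Every list pooled its libraries, so no replicate could be left out. No paired analysis was possible because every list pools its libraries. Of 51 alternative values, 11 were close to the reported one (for shares, within its counting interval) and 40 were not. The shares without a counterpart (WT then ΔTA) were 33.1% and 36.6% when an overlap of 50% of the shorter domain was asked for, 28.7% and 32.2% when a gap of up to 1000 bp counted as a match, 39.5% and 43.1% above the median score of both lists (Jaccard index 0.347), 26.7% and 28.7% above the median fold, and 32.5% and 32.0% in lists of equal length, the one setting that turned their order. Without chromosomes X and Y the WT share was 30.2%. Distal shares were 91.4% and 92.9% beyond 1000 bp and 61.5% and 61.7% beyond 10000 bp. At 50% overlap the list without DOX held 22.6% of WT-only and 38.5% of ΔTA-only domains and the ΔHMG list 20.95% and 48.5%, and above the median fold these were 22.1%, 49.99%, 21.3% and 64.0%. Above the median fold, skin domains of W2 without D0 lay over 13.6% and 5.07% (H3K4me1) and 3.31% and 1.02% (H3K27ac). With flanks of 50 kb, 61 genes were higher with WT and 30 with ΔTA-SOX9 by 10 points, and of the listed genes 0 and 0, while 178 of the 244 kept their sign. In 500-base windows a SOX word was in 65.9% and 50.8% and an AP1 word in 17.5% and 34.8%, in the same order as in 300-base windows. Chosen after seeing the data, distal domains gave 48.8% with a SOX word for WT-only and 23.9% with an AP1 word for ΔTA-only, and equal weights for GC bins gave SOX shares of 46.7% and 35.1%. The cause of these shifts was not tested. The Jaccard index has no value under the overlap, gap and fold settings. The WT list had 1.16 times the background pileup of the ΔTA list, and the part of depth in these shares was not tested.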
